A study of Homo sapiens with 6 samples.

Results

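Transforming growth factor beta (TGF-beta) signalling was described through 10 genes chosen by name in the established human ovarian cancer line HEYA8: the ligands TGFB1, TGFB2 and TGFB3, the receptors TGFBR1, TGFBR2 and TGFBR3, the intracellular transducers SMAD2, SMAD3 and SMAD7, and the induced matrix protein TGFBI. All 10 were found among the 20061 rows of the deposited expression table. The labels give the source of the line as low grade serous. Polyadenylated RNA was sequenced from 3 samples with a stably expressed short hairpin RNA (shRNA) against ETS1 (shETS1) and from 3 samples with an shRNA against luciferase, the negative control (shLuciferase). ETS1 is a transcription factor of the ETS family, and luciferase is no human gene. Cells of both groups carried a lentiviral construct and were kept under puromycin without other treatment, so no TGF-beta was added. The labels state neither if a group's samples came from separate cultures nor if its cells were a pool or 1 clone, so p-values may measure technical spread alone.

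TGF-beta is secreted in a latent form that has to be released from its propeptide before it binds. The free ligand brings a type II receptor (TGFBR2) together with a type I receptor (TGFBR1), TGFBR2 phosphorylates TGFBR1, and TGFBR1 phosphorylates SMAD2 and SMAD3, which enter the nucleus with SMAD4. SMAD7 is induced by the pathway and blocks the type I receptor in a feedback loop. In carcinoma cells the pathway is known for both growth arrest and invasive, mesenchymal behaviour.

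The deposited table holds 1 FPKM, a fragment count divided by transcript length and library size, per gene and group, made by the authors. The values below are therefore group values without a spread between samples, and sequencing depth is unknown. Differences were read from the p-values and the q-values (p-values adjusted over all tested genes) of the authors' deposited table, and a gene was called changed at a q-value of at most 0.05. FPKM is scaled to transcript length, and levels of different genes were set side by side on that scale. Such comparisons are approximate, since some loci are shared with other rows and fold changes moved with the base composition of transcripts. In RNA from a whole culture, fewer cells that make a transcript and less of it per cell cannot be told apart.

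ETS1 itself stood at 17.9 FPKM in shETS1 and 41.4 FPKM in shLuciferase, 56.9% lower, with q = 0.00964 in the authors' deposited table. Of 9 ovarian carcinoma and epithelial markers, 7 reached 1 FPKM in either group. PAX8 was at 76.8 FPKM in shETS1 and 79.7 FPKM in shLuciferase, and the keratin KRT8 was at 1288 FPKM in shETS1 and 1913 FPKM in shLuciferase, while E-cadherin (CDH1) and MUC16 were at or near 0. None of 5 leukocyte and none of 5 fibroblast markers reached 1 FPKM in either group. All 4 mesothelial markers reached 1 FPKM in either group, and 1 was called, against 0.812% of all tested genes. This was LRRN4, at 0.551 FPKM in shETS1 and 1.39 FPKM in shLuciferase, with q = 0.0242 in the authors' deposited table. The most abundant mesothelial marker, MSLN, was at 26.5 FPKM in shETS1 and 17.9 FPKM in shLuciferase and was not called (q = 0.597 in the authors' deposited table).

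Lowering ETS1 was accompanied by a rise of 1 member, TGFBR1, the type I receptor. The other 7 tested members did not pass the test, and TGFB2 and TGFB3 were marked as not tested. Of all 11952 tested genes, 97 (0.812%) were called, 65 of them higher (0.544%) and 32 lower (0.268%) in shETS1. Over the 8 tested members the median log2 fold change was 0.20, against 0.02 for the 10676 tested genes averaging at least 1 FPKM. Of these 8 members, 7 had a higher value in shETS1 and 1, TGFB1, had a lower one. Among the 10676 genes, 5609 had a higher value in shETS1. With a trend on transcript GC content removed, TGFBR3 and SMAD2 changed sign and were lower too. The members were chosen with earlier results of these data known, so these counts are no test of them as a set. TGFBR1 was also the 1 member called under 3 other rules: a q-value of at most 0.1 (1.26% of tested genes), adjustment over genes averaging at least 1 FPKM (0.768% of these), and at least 1 FPKM in both groups (0.628% of tested genes). These rules reuse the same deposited p-values, so they are no separate test of TGFBR1.

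**Figure D1:**
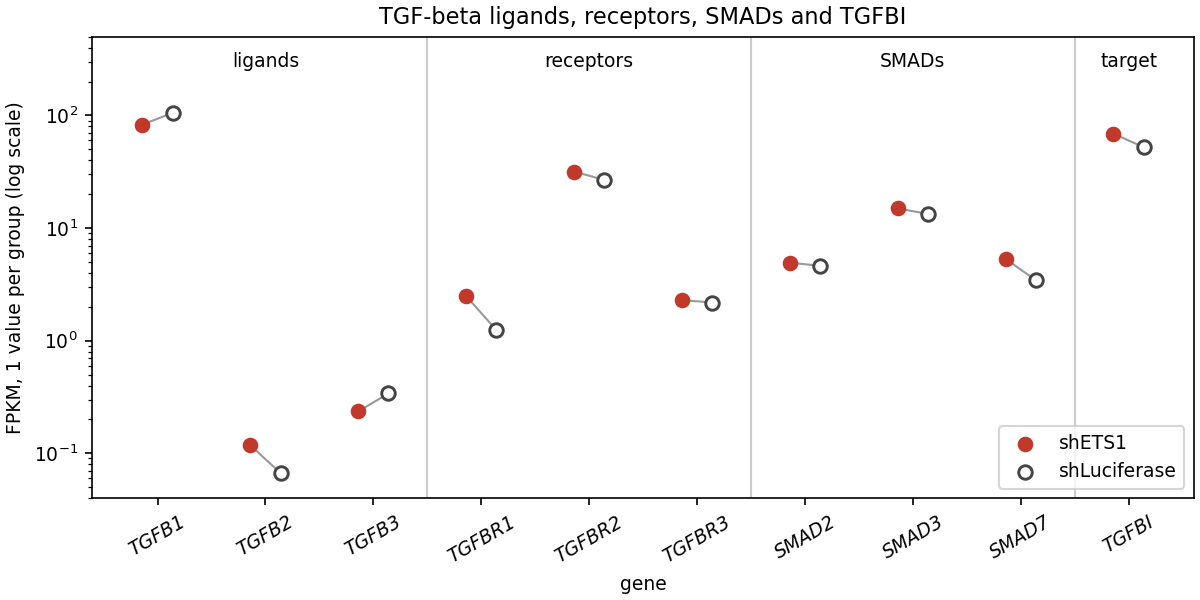
Level of each member in FPKM (vertical log axis), with the shETS1 value as a filled red point left of the shLuciferase value as an open point; each point is 1 deposited group value and has no error bar. TGFB1 is the most abundant member in both groups, TGFB2 and TGFB3 lie below 1 FPKM, and the steepest line among the tested members is that of TGFBR1, at 2.50 against 1.24 FPKM.

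The ligand transcripts came almost entirely from 1 gene. TGFB1 was at 82.9 FPKM in shETS1 and 106 FPKM in shLuciferase, a log2 fold change of -0.35 with p = 0.275 and q = 1.00 in the authors' deposited table. It held 99.6% of the summed FPKM of the 3 ligands in shETS1 and 99.6% in shLuciferase. TGFB1 ranked above 90.0% of all tested genes by level in shETS1 and above 92.0% in shLuciferase. Its deposited locus (chromosome 19, 41836812 to 41930910, hg19) is shared with 4 other rows, among them EXOSC5 at 68.7 FPKM in shETS1 and 74.4 FPKM in shLuciferase, so that reads of TGFB1 may be mixed with those of its neighbours.

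The other two ligands were scarcely detected. TGFB2 was listed at 0.118 FPKM in shETS1 and 0.0668 FPKM in shLuciferase, and TGFB3 at 0.235 FPKM in shETS1 and 0.340 FPKM in shLuciferase. Their log2 ratios, 0.82 and -0.53, shrank to 0.07 and -0.12 when 1 FPKM was added to each group value. At such levels no change in either direction could be read.

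The receptors differed widely in level, and the scarcest in control cells was the one that changed. TGFBR1 (chromosome 9, 101867412 to 101916473, hg19), the type I receptor kinase that phosphorylates SMAD2 and SMAD3, was at 2.50 FPKM in shETS1 and 1.24 FPKM in shLuciferase. This 2.01-fold rise is a log2 fold change of 1.00, with p = 5e-05 and q = 0.00964 in the authors' deposited table. That p-value is the smallest in the table, and 62 called genes share it, TGFBR1 among them. The change exceeded that of 98.9% of the tested genes, while the level of TGFBR1 exceeded that of 24.4% of them in shETS1 and 14.1% in shLuciferase. With 1 FPKM added to each group value its log2 ratio was 0.64.

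TGFBR2, the type II receptor kinase that binds the ligand first, was at 31.7 FPKM in shETS1 and 26.8 FPKM in shLuciferase, with a log2 fold change of 0.24 and q = 1.00 in the authors' deposited table. TGFBR3 (betaglycan), a membrane proteoglycan that presents ligand to the signalling receptors, was at 2.29 FPKM in shETS1 and 2.18 FPKM in shLuciferase, a log2 fold change of 0.07. Neither passed the test. Per length, TGFBR2 transcripts were 12.7 times as abundant as those of TGFBR1 in shETS1 and 21.6 times in shLuciferase. TGFBR3 stood at 0.920 times the level of TGFBR1 in shETS1 and at 1.76 times in shLuciferase, so the order of these low receptors differed between the groups. These ratios have no error, because each rests on single group values.

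The receptor-regulated SMADs had nearly the same values in both groups. SMAD3 was at 14.9 FPKM in shETS1 and 13.4 FPKM in shLuciferase, a log2 fold change of 0.16 with p = 0.492 in the authors' deposited table. SMAD2, its close relative, was at 4.93 FPKM in shETS1 and 4.63 FPKM in shLuciferase, a log2 fold change of 0.09 with p = 0.814 in the authors' deposited table. SMAD3 transcripts were 3.03 times as abundant as SMAD2 transcripts in shETS1 and 2.89 times in shLuciferase.

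SMAD7, the feedback inhibitor, had the second largest fold change of the tested members. It was at 5.32 FPKM in shETS1 and 3.45 FPKM in shLuciferase, 1.54 times as high. The log2 fold change of 0.63 had p = 0.0341 but q = 0.630 in the authors' deposited table, so SMAD7 was not called. Of all tested genes, 829 (6.94%) had a p-value under 0.05 before adjustment, 466 of them higher (3.9%) and 363 lower (3.04%) in shETS1, and SMAD7 and TGFBR1 were the 2 among the 8 tested members. Relative to SMAD3, SMAD7 stood at 0.356 in shETS1 and 0.258 in shLuciferase.

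TGFBI, a secreted matrix protein named for its induction by TGF-beta, was at 68.9 FPKM in shETS1 and 52.3 FPKM in shLuciferase. Its log2 fold change of 0.40 had p = 0.0974 and q = 0.885 in the authors' deposited table. TGFBI was thus an abundant transcript, above 88.2% of tested genes by level in shETS1 and 84.8% in shLuciferase, whose 1.32-fold difference did not pass the test.

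What the authors' test could call depended on level. Of 3346 tested genes with a mean from 1 to 5 FPKM, the range of TGFBR1, TGFBR3, SMAD2 and SMAD7, 37 were called (1.11%), and the smallest called change was 0.97 on the log2 scale. From 20 to 100 FPKM, the range of TGFB1, TGFBR2 and TGFBI, 18 of 2747 genes were called and the smallest called change was 0.87. Differences of the size seen for SMAD7, TGFBI or TGFB1 were thus below anything called at their level, and a missing call does not show that these genes were alike in both groups.

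**Figure D2:**
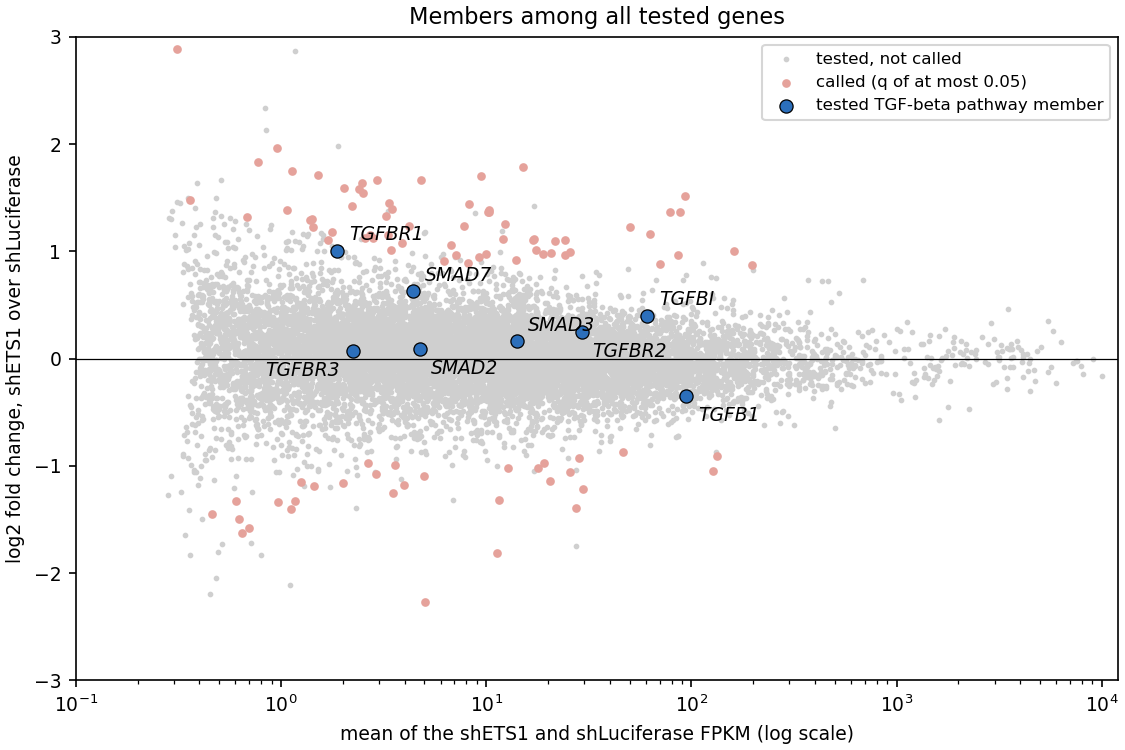
Log2 fold change of shETS1 over shLuciferase (vertical axis) against the mean of both group FPKM values (horizontal log axis) for tested genes, with called genes in pale red and the 8 tested members in blue; 4 genes outside the axes or without a finite fold are not drawn. TGFBR1 at 1.00 lies among the called genes, and the other 7 members, between -0.35 and 0.63, lie within the grey cloud.

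Promoter sequence was examined for ETS motifs at the 10 members, since ETS factors bind a GGAA core. RefSeq (GRCh38.p14) lists 26 transcript starts for them, and the 220 bases from 250 to 31 bases before each start were searched on both strands for GGAA and for CCGGAA, a longer form that contains it. GGAA occurred in 20 of the 26 windows, against 90.1% of all 35116 windows in the table. CCGGAA occurred in 2 windows, 1 of TGFBR1 and 1 of SMAD7, and in 11.8% of all windows. Windows are not independent, since a gene can have several and they can overlap. Counted by gene, each of the 10 members had GGAA in at least 1 window, against 91.9% of all genes. CCGGAA was found for 2 of the 10 members, against 14.1% of all genes. Shown here are the first-listed TGFBR1 window, because TGFBR1 was called, and the 2 windows with CCGGAA, each 5′ to 3′ on the strand of the gene, with every match to either motif, on either strand, in capitals.
TGFBR1 first-listed start, chr9:99104863-99105082, plus strand: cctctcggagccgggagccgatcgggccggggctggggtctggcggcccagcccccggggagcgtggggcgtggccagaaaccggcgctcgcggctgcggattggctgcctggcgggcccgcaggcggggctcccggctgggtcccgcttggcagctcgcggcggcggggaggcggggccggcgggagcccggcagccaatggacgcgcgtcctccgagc
TGFBR1 other start, chr9:99103802-99104021, plus strand: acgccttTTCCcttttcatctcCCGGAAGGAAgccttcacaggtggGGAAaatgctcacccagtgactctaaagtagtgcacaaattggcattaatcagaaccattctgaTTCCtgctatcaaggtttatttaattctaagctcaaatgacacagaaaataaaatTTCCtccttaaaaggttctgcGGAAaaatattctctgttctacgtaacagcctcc
SMAD7 other start, chr18:48949364-48949583, minus strand: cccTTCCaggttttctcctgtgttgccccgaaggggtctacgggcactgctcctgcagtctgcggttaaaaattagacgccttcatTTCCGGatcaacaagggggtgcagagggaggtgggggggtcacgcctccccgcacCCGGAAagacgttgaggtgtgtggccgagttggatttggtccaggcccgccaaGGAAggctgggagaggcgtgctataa
The first-listed TGFBR1 window held neither motif, the other TGFBR1 window held GGAA 7 times and CCGGAA 1 time, and the SMAD7 window held CCGGAA 2 times among 4 matches to the core. RefSeq lists 8 starts for TGFBR1 and 3 for SMAD7, and the deposited table does not tell which start was used in these cells. A match describes these letters and not binding, and a missing match covers no more than these windows.

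The rest of the pathway was described from 5 lists of other genes by role, 93 genes in all, of which 74 were tested. Of these, 3 (4.05%) rose and none fell in shETS1: FST, CTGF and COL1A1. Over all tested genes 0.544% were called higher and 0.268% lower. At an unadjusted p-value under 0.05 in the authors' deposited table, 12 were higher and 1 was lower, against 3.9% higher and 3.04% lower among all tested genes. The 5 lists were chosen with earlier results of these data known, so these comparisons are no test of the pathway.

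Of 6 tested genes on the list of other ligands of the family none was called, where 0.812% of all tested genes were. The list includes BMP1, which despite its name is a protease and no ligand. INHBA, the activin A subunit, was the most abundant at 166 FPKM in shETS1 and 98.3 FPKM in shLuciferase, with a log2 fold change of 0.75, p = 0.0019 and q = 0.131 in the authors' deposited table. It was the 1 gene of this list under an unadjusted 0.05, where 6.94% of all tested genes were. INHBA transcripts stood at 2.00 times those of TGFB1 in shETS1 and at 0.931 times in shLuciferase. Neither gene was called, and the TGFB1 locus is shared with other rows. With a trend on transcript GC content removed, the log2 fold change of INHBA was 0.55 and that of TGFB1 -0.21. GDF15, a stress-induced cytokine, was at 19.0 FPKM in shETS1 and 20.8 FPKM in shLuciferase, and GDF11 at 9.64 FPKM in shETS1 and 9.16 FPKM in shLuciferase. Over the 5 genes of this list averaging at least 1 FPKM, BMP1 included, the median log2 fold change was 0.02, or -0.00153 with upper-quartile scaling.

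None of 11 tested other receptors was called either, where 0.812% of all tested genes were. Endoglin (ENG), a co-receptor typical of endothelium, was the most abundant, at 234 FPKM in shETS1 and 327 FPKM in shLuciferase, with p = 0.0631 in the authors' deposited table. It stood at 7.36 times the level of TGFBR2 in shETS1 and 12.2 times in shLuciferase. NRP1, a co-receptor for several ligands, was at 17.2 FPKM in shETS1 and 13.1 FPKM in shLuciferase, and the activin type I receptor ACVR1 at 6.59 FPKM in shETS1 and 6.19 FPKM in shLuciferase. At an unadjusted p-value under 0.05, 1 receptor was higher and 1 lower, against 3.9% and 3.04% of all tested genes. Both were named after their values were seen. ACVRL1, an endothelial type I receptor, was at 0.894 FPKM in shETS1 and 1.79 FPKM in shLuciferase with q = 0.152 in the authors' deposited table, and BMPR1B at 0.641 FPKM in shETS1 and 0.325 FPKM in shLuciferase with q = 0.164 in the authors' deposited table. Of 3 endothelial markers found, CDH5 was at 5.00 FPKM in shETS1 and 17.6 FPKM in shLuciferase, with q = 0.00964 in the authors' deposited table, and KDR and VWF were at most at 0.238 FPKM in either group. Their sum was 5.26 FPKM in shETS1 and 17.9 FPKM in shLuciferase, and its part in the values of ENG and ACVRL1 was not tested.

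Of 20 tested other SMADs and SMAD regulators none was called, where 0.812% of all tested genes were. The median log2 fold change of the 19 averaging at least 1 FPKM was 0.15, or 0.036 with a trend on transcript GC content removed. SMAD4, the shared partner of SMAD2 and SMAD3, was at 2.52 FPKM in shETS1 and 1.97 FPKM in shLuciferase. SMURF2, a ubiquitin ligase that acts with SMAD7 on the receptors, was at 60.3 FPKM in shETS1 and 62.0 FPKM in shLuciferase. FKBP1A, which binds the type I receptor and keeps it inactive, was at 215 FPKM in shETS1 and 304 FPKM in shLuciferase, with p = 0.0744 in the authors' deposited table. Its locus is shared with 2 other expressed rows. STRAP, which helps SMAD7 at the receptor, was at 143 FPKM in shETS1 and 126 FPKM in shLuciferase. The 1 gene of this list under an unadjusted 0.05 (6.94% of all tested genes) was SKIL, a SMAD co-repressor that TGF-beta induces. It was at 7.92 FPKM in shETS1 and 5.12 FPKM in shLuciferase, with p = 0.0124 and q = 0.383 in the authors' deposited table. Its log2 fold change was 0.63, or 0.29 with the GC trend removed. SMAD4 and SKIL were named after their values were seen.

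Among 14 tested genes of latency, activation and extracellular inhibition, FST rose, where 0.544% of all tested genes were called higher. Follistatin, the product of FST, binds and neutralises activins. FST was at 5.25 FPKM in shETS1 and 2.49 FPKM in shLuciferase, a 2.11-fold difference with q = 0.0407 in the authors' deposited table. The abundant members FSTL1, ITGB5 and LTBP4 were not called. FSTL1, a follistatin-like glycoprotein, was at 66.8 FPKM in shETS1 and 51.4 FPKM in shLuciferase. The integrin subunit ITGB5 was at 38.8 FPKM in shETS1 and 38.5 FPKM in shLuciferase, and the latent TGF-beta binding protein LTBP4 at 24.5 FPKM in shETS1 and 28.2 FPKM in shLuciferase. At an unadjusted p-value under 0.05, which 3.9% of all tested genes met as higher, 2 further genes were higher, named after their values were seen. GREM1, a BMP antagonist, was at 4.80 FPKM in shETS1 and 1.85 FPKM in shLuciferase with q = 0.462 in the authors' deposited table, and the binding protein LTBP1 at 0.817 FPKM in shETS1 and 0.354 FPKM in shLuciferase with q = 0.152 in the authors' deposited table. The median log2 fold change was 0.38 over the 13 genes of this list averaging at least 1 FPKM. Over its genes averaging at least 5 FPKM, the median was 0.01.

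Of 23 tested TGF-beta response genes 2 rose and none fell, where 0.544% of all tested genes were called higher and 0.268% lower. This list too was chosen with earlier results known, so its counts are no test of a TGF-beta response. CTGF, a matricellular protein, was at 256 FPKM in shETS1 and 140 FPKM in shLuciferase, 1.83 times as high with q = 0.0445 in the authors' deposited table. COL1A1, a chain of collagen I, was at 3.75 FPKM in shETS1 and 1.29 FPKM in shLuciferase, 2.91 times as high with q = 0.00964 in the authors' deposited table. The summed level of 5 fibroblast markers was 0.150 FPKM in shETS1 and 0.121 FPKM in shLuciferase, with COL3A1 and DCN listed at 0 in both groups.

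Fibronectin and TGM2, abundant response genes, were not called. Fibronectin (FN1) was at 632 FPKM in shETS1 and 415 FPKM in shLuciferase with p = 0.154 in the authors' deposited table. The transglutaminase TGM2 was at 630 FPKM in shETS1 and 718 FPKM in shLuciferase, with p = 0.559 in the authors' deposited table. In all, 6 of the 23 tested response genes were higher and none lower at an unadjusted p-value under 0.05, against 3.9% higher and 3.04% lower among all tested genes. Beside COL1A1 and CTGF they included PMEPA1, a negative regulator of the pathway, the repressor SNAI2 and the AP-1 subunit JUNB, with q-values of 0.131, 0.110 and 0.438 in the authors' deposited table, named after their values were seen. The cell cycle inhibitor CDKN1A and the inhibitor of differentiation ID1, also chosen after their values were seen, were not among them. CDKN1A was at 172 FPKM in shETS1 and 214 FPKM in shLuciferase, and ID1 at 102 FPKM in shETS1 and 97.9 FPKM in shLuciferase. Of 22 response genes averaging at least 1 FPKM, 17 had a higher value in shETS1, as did 5609 of all 10676 such tested genes. The median log2 fold change of these response genes was 0.27, or 0.12 over those averaging at least 5 FPKM.

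**Figure D3:**
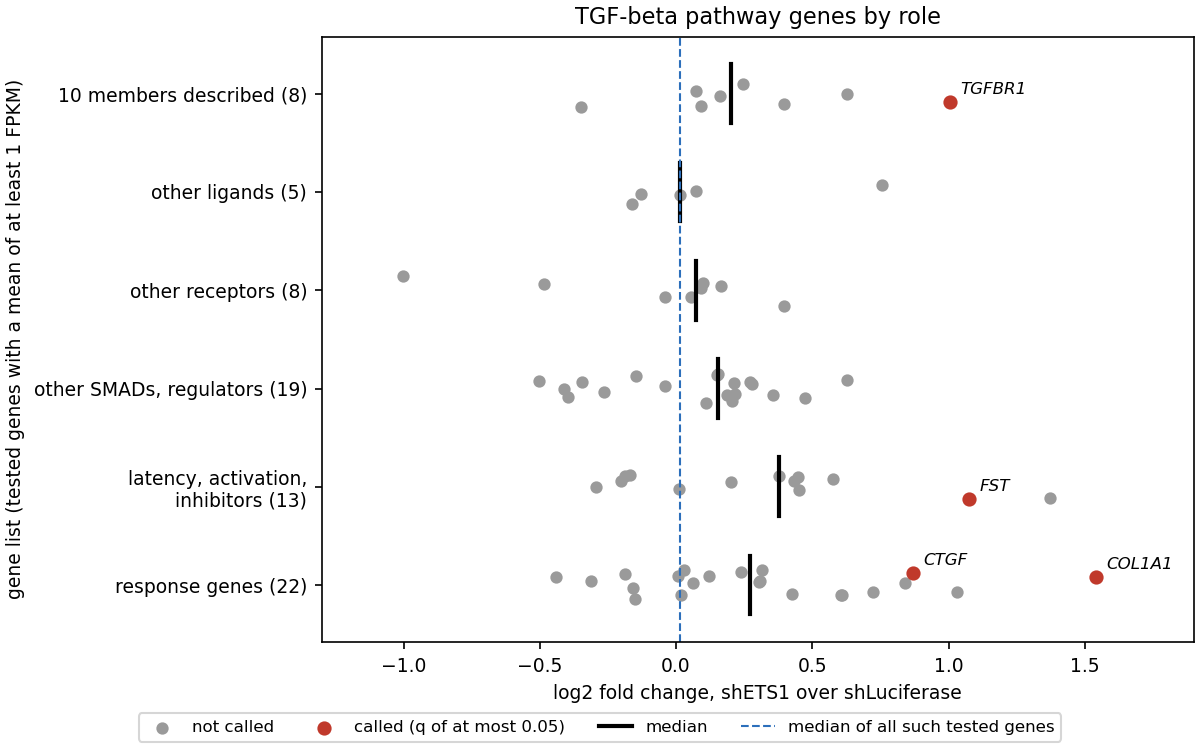
Log2 fold change of shETS1 over shLuciferase (horizontal axis) of tested genes averaging at least 1 FPKM in each list, whose number stands in parentheses; points are genes, spread vertically for legibility, red ones are called, black bars are list medians and the dashed line is the median of all such genes, 0.02. The 4 red points are TGFBR1, FST, CTGF and COL1A1, and the medians run from 0.02 for the list of other ligands to 0.38 for latency, activation and inhibition.

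Fold changes in this table moved with the base composition of transcripts, and the members were set against that trend. Across 9736 tested genes averaging at least 1 FPKM and having a GC value, the median log2 fold change was 0.25 in the decile lowest in GC and -0.16 in the decile highest in it. TGFBR1 lay near the low end, with a GC content of 38.3%, and TGFB1 near the high end, with 63.5%. With a cubic trend on GC content removed, the log2 fold change of TGFBR1 was 0.78, that of SMAD7 0.73 and that of TGFB1 -0.21. For TGFBR1 this is below 0.97, the smallest change called from 1 to 5 FPKM before such removal. No p-value exists for a change with the trend removed. SMAD7, with a GC content of 58.7%, and TGFBI, with 53.8%, lay above the trend, and TGFBI was at 0.45 after its removal. TGFBR3 and SMAD2 changed sign, to -0.035 and -0.090. The SMAD2 transcript behind this value has 34526 bases, and which SMAD2 isoform these cells make was not tested.

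**Figure D4:**
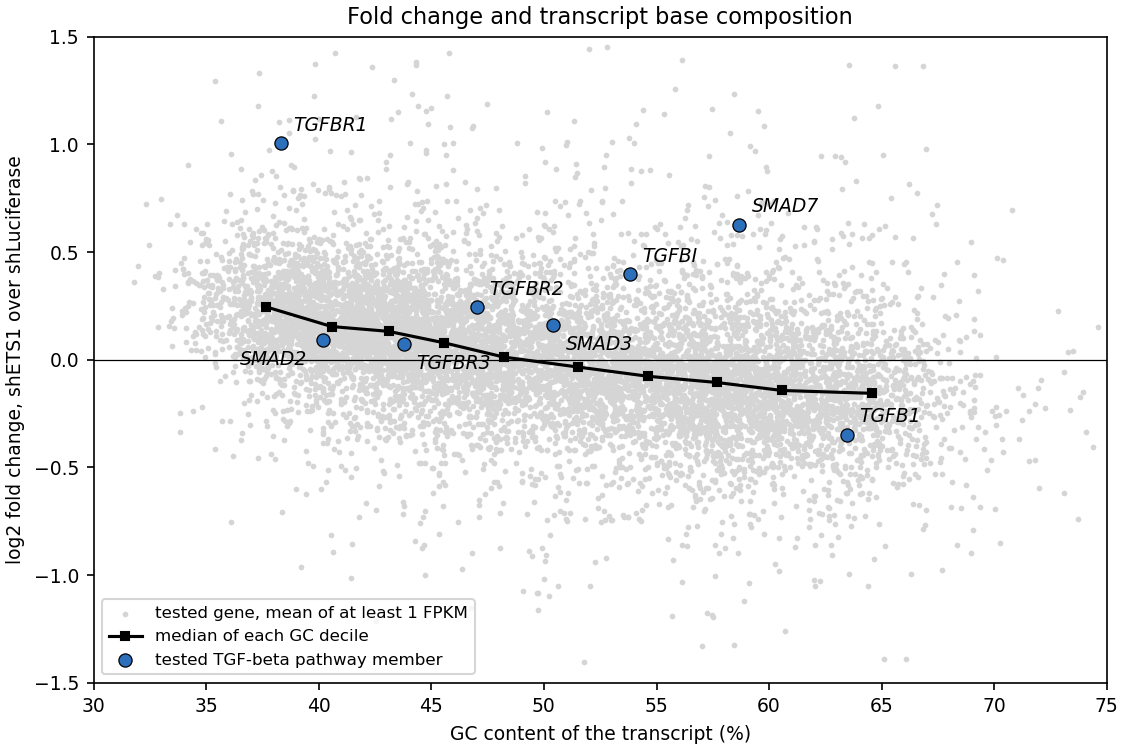
Log2 fold change of shETS1 over shLuciferase (vertical axis) against the GC content of the transcript in percent (horizontal axis); grey points are tested genes averaging at least 1 FPKM, the black line joins the medians of 10 equal groups by GC content, and blue points are the 8 tested members; 17 genes outside the axes are not drawn. The black line runs down to -0.16, and TGFBR1, SMAD7 and TGFBI lie above it while TGFB1 lies below it.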

How the data were processed

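RNA of 3 shETS1 and 3 shLuciferase samples was sequenced after poly(A) selection and random-hexamer priming, with no strand-marking step described, per the labels' protocols. The submitters' processing notes name Cufflinks 2.1.1, TopHat2 2.0.7, SAMtools 0.1.18, Bowtie2 2.0.6 and build hg19; their roles, the annotation and the scaling were not given in the sources used. The deposited table holds 1 FPKM value for each group, a p-value, a q-value, a log2 fold change and a score (the test statistic, left aside), per the file headers. In it 11952 rows were tested and 8109 not. Deposited q-values matched a Benjamini-Hochberg adjustment within 5.16e-07. A spreadsheet error text stood in 629 log2 cells, none of a member.

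No value per sample exists in this table, so the limma test planned for such values was not run and the authors' test was read instead. Medians cover tested genes averaging at least 1 FPKM. GC content is that of the GENCODE 29 transcript with the longest coding sequence, found for 91.2% of these genes by symbol. Adjustment and trend removal were tested on simulated data. Deposited starts were raised by 1. Python 3.11.15, pandas 2.3.3 and NumPy 2.4.6 were used.

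The members and the 5 lists were chosen with earlier results of these data known. Named genes are ETS1, the members, every called gene and the 3 most abundant tested genes of each list; other genes, cell type markers and EXOSC5 included, were chosen after their values were seen. A gene that this rule names is not reported here. Alternatives were 1 or 0.1 FPKM added, centring, upper-quartile scaling, GC trend removal, a q-value of 0.1, adjustment over genes averaging at least 1 FPKM, both groups at 1 FPKM or more, and other level filters.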

Additional observations from a re-analysis of the deposited data

How the results depend on the processing

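TGFBR1 was the 1 member called at a q-value of at most 0.1, with p-values adjusted over genes averaging at least 1 FPKM (q-value 0.00971) and with both groups required to reach 1 FPKM. All of these settings reuse the same deposited p-values and are no separate test of TGFBR1. Settings that altered the fold change gave no p-value. The counts of called genes on the 5 lists were also equal under these 3 settings. The members' median log2 fold change lay between 0.18 and 0.20 in every setting run. With the GC trend removed, TGFBR3 changed sign to -0.035 and SMAD2 to -0.090; no other member changed sign in any setting. The median of the list of other ligands changed sign to -0.00153 with upper-quartile scaling, to -0.057 with no filter on level and to -0.028 for genes averaging at least 5 FPKM. With the GC trend removed, that of other receptors became -0.036, that of other SMADs 0.036 and that of latency genes 0.28. For genes averaging at least 5 FPKM, the median of latency genes was 0.011 and that of response genes 0.12. The cause was not tested. A median was counted as moved at a distance of 0.1. No paired analysis was possible because the table gives 1 value per group, and for the same reason no replicate could be left out. The low levels of TGFB2 and TGFB3, which the authors did not test, limit what can be said of them.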
